A study of Caenorhabditis elegans with 12 samples.

Results

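The genes described here copy DNA and drive the cell cycle in C. elegans: 50 genes, all among the 12595 genes of the expression table. They were chosen by name from the field of DNA replication and cell division. Earlier results of these data were known when the choice was made. RNA came from whole day 1 adults grown at 25°C, in 4 groups of 3 biological replicates. The WT groups were N2 animals fed bacteria with the empty L4440 vector or with skn-1 RNAi, and the other groups were glp-1(bn18ts) animals, called glp-1(ts), on the same 2 foods. Each sample pooled many synchronised animals. All groups, controls included, were held at 25°C, the temperature at which the glp-1 allele blocks the proliferation of germline stem cells (GSCs). The WT adults had an intact germline and eggs, because no drug was given to stop reproduction, and the skn-1 knockdown was partial by design. The labels start RNAi feeding at the egg and the study's methods at the L1 larva.

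Before a cell divides, the origin recognition complex marks the start sites of replication and, with its licensing partners, loads a ring-shaped MCM helicase there. Kinases then switch the helicase on, primase and the polymerases copy the opened strands, a sliding clamp keeps the polymerases on the template, and nucleases and a ligase join the new pieces. Cyclin-dependent kinases (CDKs) with their cyclins time these steps, and inhibitors, phosphatases and checkpoint kinases set when they act. In an adult hermaphrodite the somatic cells no longer divide, whereas germ cells proliferate in mitosis, replicate before meiosis and load oocytes with the machinery that embryos use for their rapid divisions.

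The values are log2 CPM (CPM being read counts scaled to library size, quantile normalised by the authors), so a difference of 1 is a 2-fold difference in normalised CPM. This is a relative level and, after quantile normalisation, not an exact share of the library's mRNA. In bulk RNA of whole animals, fewer cells of a type and less RNA per cell cannot be told apart. The RNAi target was read first: skn-1 measured 6.38, 6.50 and 6.10 in WT on vector and 4.56, 5.03 and 4.37 in WT on skn-1 RNAi, a difference of −1.67 with a limma Benjamini-Hochberg adjusted p of 0.00782. In glp-1(ts) it measured 6.07, 6.17 and 6.23 on vector and 5.73, 6.60 and 6.08 in the libraries labelled skn-1 RNAi, a difference of −0.02 (adjusted p 0.991), and the groups overlapped. These glp-1(ts) libraries are therefore named by their label throughout. The difference between these skn-1 effects, 1.66, was not called after adjustment over all genes (adjusted p 0.732). For the same samples the paper reports that gst-4 and nit-1, known targets of the SKN-1 protein, rose in glp-1(ts) dependent on skn-1. Those target genes were not examined here. The level of glp-1 mRNA differed by −2.12 between glp-1(ts) and WT on vector (adjusted p 5.53e-07), and this lesion does not remove the mRNA, so it does not check the strain. Markers of the germline do. All 24 genes of a germline list that holds none of the 50 genes were lower in glp-1(ts) on each food, and intestine (7 of 7 genes) and muscle (6 of 6) markers were higher on both. On vector, 9 of 11 oocyte and eggshell genes (median −3.23) and 3 of 3 early embryo genes (−3.39) were lower too, while the eggshell gene perm-2 was higher (0.63). Sperm genes went the other way, with 3 of 6 called higher and a median of 1.56, at a summed level of 5.57 to 7.51 CPM in WT and 8.96 to 10.2 in glp-1(ts). Of 8 early embryo and 12 sperm genes named, 3 and 6 were measured. The early embryo genes summed to 3.59 to 5.74 CPM in WT on vector and 0.15 to 1.02 in glp-1(ts). In replicate 2 of glp-1(ts) on vector they all had the lowest value of the data, so their difference rests on values near the floor. Germ cells, oocytes and embryos in the mother cannot be told apart as sources of the member transcripts. The 3 WT libraries on vector had a germline list mean of 6.17 to 6.36 log2 CPM, and the 3 of glp-1(ts) one of 3.08 to 4.09, and its defining genes pgl-1, glh-1, gld-1 and htp-3 together still reached 73.9 to 188 CPM in glp-1(ts). The highest of these values belonged to replicate 3 of glp-1(ts) on vector, which also held the highest member values of its group. It had the highest value of its group for 47 of the 50 members and 20 of the 24 germline genes, against 36.4% of all genes. Main counts that use it are also given without it.

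On vector, all 50 genes were lower in the glp-1(ts) libraries by limma with Benjamini-Hochberg adjustment, where 38% of all 12595 genes were lower and 39.4% were higher. The median difference was −2.60 on the log2 scale, a 6.05-fold lower normalised CPM, and it ran from −5.13 (psf-2) to −0.93 (cki-1, adjusted p 0.026). For 40 of the 50 genes the level was over 4-fold lower, as for 15.2% of all genes, and for 4 it was over 8-fold lower. Without replicate 3 of glp-1(ts) those counts were 46 (16.6% of all genes) and 20. The share of all genes over 8-fold lower was not counted. The summed level of the 50 genes was 4626 ± 377 CPM (SD, n = 3) in WT and 813 ± 287 CPM in glp-1(ts), with a range of 600 to 1140 in the latter, or 600 to 700 without replicate 3. Every WT library lay above every glp-1(ts) library for all 50 genes, as for 39.7% of all genes. Leaving out replicate 3 of glp-1(ts) on vector gave a median of −2.92 and 49 of 50 calls. The 1 call lost was cki-1, with an adjusted p of 0.0653, and it was also lost without replicate 1 of that group (0.0969) or replicate 3 of WT on vector (0.0905).

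**Figure D1:**
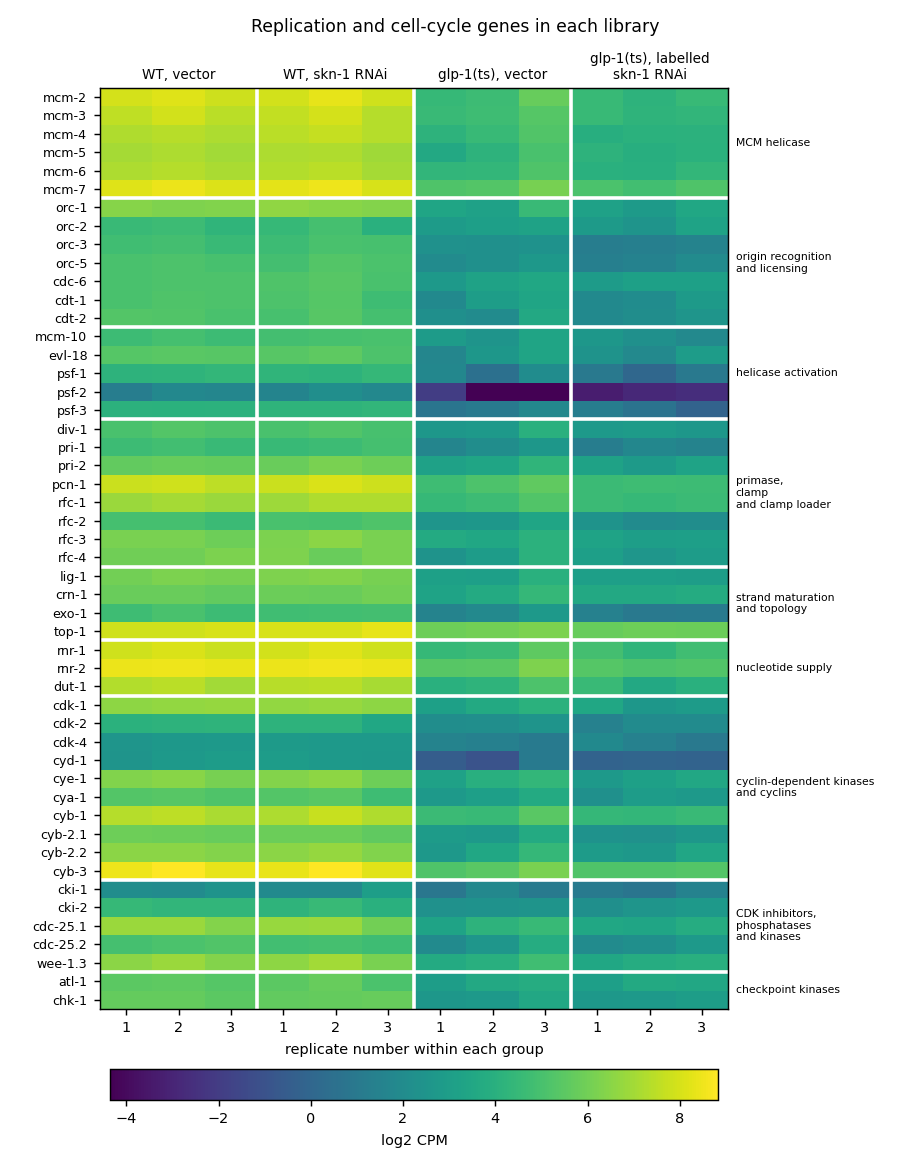
Level of the 50 genes in each of the 12 libraries, as log2 CPM on a colour scale, with genes in rows by role and libraries in columns by group. The 6 glp-1(ts) columns are darker than the 6 WT columns in every row, and replicate 3 of glp-1(ts) on vector is the lightest column of its group for 47 of 50 genes.

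The comparison was repeated in the 6 other libraries, on food labelled skn-1 RNAi, which share no sample with those on vector. Again all 50 genes were lower in glp-1(ts), where 38.1% of all genes were lower. The median difference was −3.10 (8.59-fold), from −4.78 (psf-2) to −1.16 (cki-1, adjusted p 0.00765), and 46 genes were over 4-fold lower, as were 18.1% of all genes. The groups did not overlap for any of the 50 genes, as for 38.4% of all genes in this direction. Summed CPM was 4842 ± 541 (SD, n = 3) in WT and 591 ± 42.3 in glp-1(ts), and the 3 glp-1(ts) libraries were close together, at 546 to 631 CPM. On this food skn-1 mRNA was also higher in the glp-1(ts) libraries, by 1.49 (adjusted p 1.79e-05), so the strains there differ in the RNAi target as well.

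**Figure D2:**
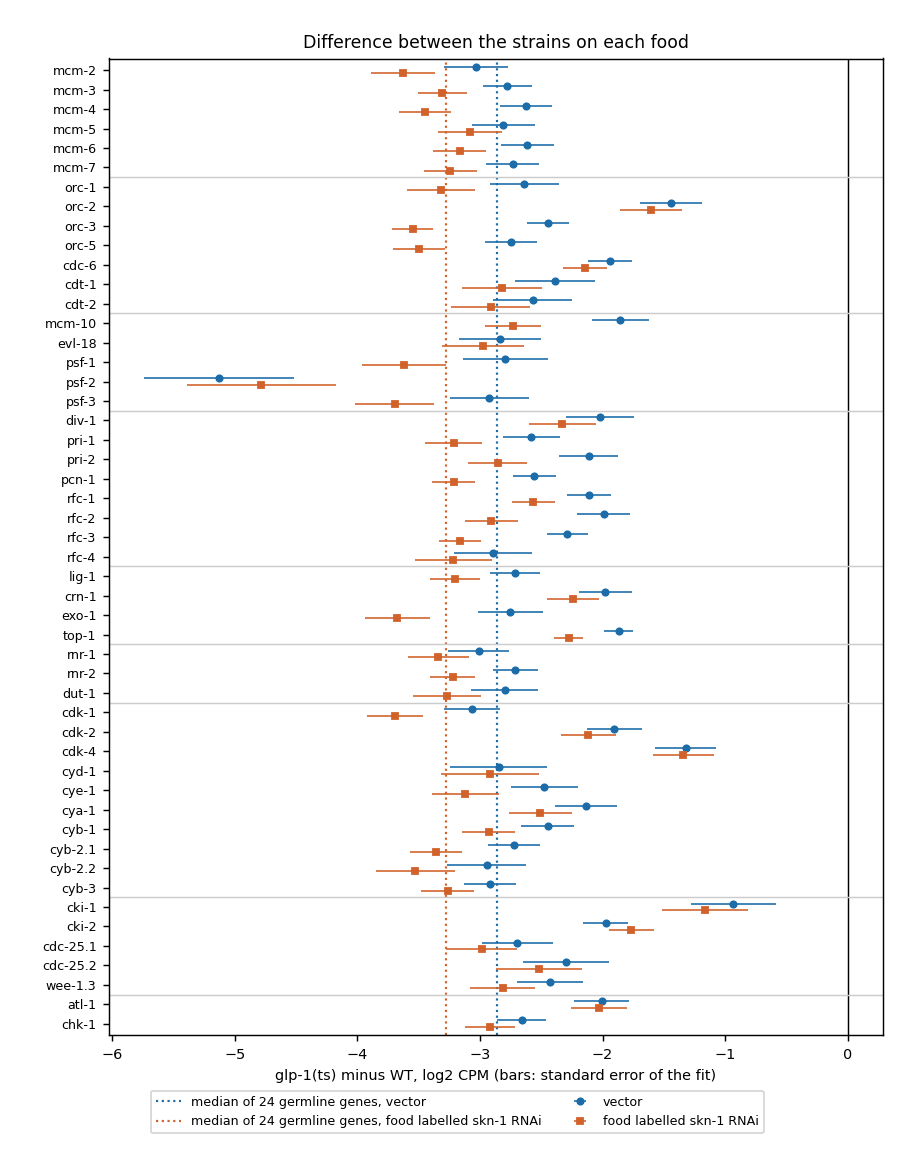
Difference between glp-1(ts) and WT in log2 CPM for each gene on vector (circles) and on food labelled skn-1 RNAi (squares), with standard errors of the limma fit and dotted lines at the median of the 24 germline genes. All points lie left of 0, psf-2 lies lowest at −5.13 and −4.78, and orc-2, cdk-4 and cki-1 lie nearest to 0.

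The MCM genes encode the 6 related subunits of the ring that unwinds DNA at the fork. They stood within a narrow band of each other, with differences from −3.03 (mcm-2) to −2.61 (mcm-6) on vector and from −3.63 (mcm-2) to −3.08 (mcm-5) on food labelled skn-1 RNAi. For mcm-2 (WBGene00003154, chromosome II, 12001509 to 12006625, minus strand) the values were 7.97, 8.18 and 7.82 log2 CPM in WT and 4.48, 4.67 and 5.74 in glp-1(ts) on vector, and 7.92, 8.35 and 7.88 in WT and 4.53, 4.19 and 4.55 in glp-1(ts) on food labelled skn-1 RNAi. Its difference on vector, −3.03 (SE 0.26), had a limma Benjamini-Hochberg adjusted p of 2.6e-07. In mcm-7, the MCM gene with the highest level per length, the libraries gave 8.20, 8.46 and 8.14 log2 CPM in WT and 5.18, 5.29 and 6.14 in glp-1(ts) on vector, and 8.28, 8.50 and 8.04 in WT and 5.10, 4.81 and 5.19 in glp-1(ts) on food labelled skn-1 RNAi. The libraries of mcm-3 gave 7.58, 7.90 and 7.47 log2 CPM in WT and 4.59, 4.71 and 5.33 in glp-1(ts) on vector, and 7.63, 7.96 and 7.37 in WT and 4.51, 4.20 and 4.32 in glp-1(ts) on food labelled skn-1 RNAi. The WT groups on either food held nearly the same levels for these genes, and replicate 3 was the highest of the glp-1(ts) vector libraries, about 1 unit above the others for mcm-2.

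The remaining ring subunit genes had similar values. For mcm-4 the values were 7.24, 7.42 and 7.20 log2 CPM in WT and 4.16, 4.55 and 5.27 in glp-1(ts) on vector, and 7.45, 7.65 and 7.37 in WT and 3.92, 4.08 and 4.13 in glp-1(ts) on food labelled skn-1 RNAi. Those of mcm-5 were 7.07, 7.20 and 7.02 log2 CPM in WT and 3.61, 4.19 and 5.06 in glp-1(ts) on vector, and 7.18, 7.27 and 6.93 in WT and 4.19, 3.89 and 4.05 in glp-1(ts) on food labelled skn-1 RNAi. Those of mcm-6 were 7.20, 7.37 and 7.17 log2 CPM in WT and 4.32, 4.36 and 5.22 in glp-1(ts) on vector, and 7.31, 7.48 and 7.03 in WT and 4.0, 3.97 and 4.37 in glp-1(ts) on food labelled skn-1 RNAi. The mcm-5 libraries of glp-1(ts) on vector were the most scattered of the 6 genes (SD 0.73), against 0.09 in WT. Per kilobase of exon, the WT levels on vector ran from 5.82 log2 CPM per kb (mcm-5) to 6.97 (mcm-7), and the glp-1(ts) levels from 3.01 (mcm-5) to 4.24 (mcm-7). Without replicate 3 of glp-1(ts) on vector the median of the 6 genes was −3.02 in place of −2.75, and the medians of the other roles below also lay lower without it, from −3.22 to −2.46. The highest adjusted p of the group was 4.72e-07 on vector and 1.32e-07 on the other food.

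All 7 genes of origin recognition and licensing were lower too, with a median of −2.45 on vector and −2.91 on food labelled skn-1 RNAi. The orc genes encode subunits of the complex that sits on origins, CDC-6 and CDT-1 help it to load the helicase, and CDT-2 directs the destruction of CDT-1 once replication has begun. The subunit genes spread widely, from −2.75 to −1.44 on vector. For orc-2 (WBGene00003882, chromosome II, 10873931 to 10877683, plus strand), the least reduced, the values were 4.59, 4.69 and 4.28 log2 CPM in WT and 2.87, 3.11 and 3.26 in glp-1(ts) on vector, and 4.49, 4.96 and 4.0 in WT and 2.84, 2.49 and 3.31 in glp-1(ts) on food labelled skn-1 RNAi. Its difference was −1.44 (SE 0.25) on vector and −1.60 on the other food, with adjusted p-values of 0.000137 and 4.69e-05. The glp-1(ts) libraries of orc-2 were all below those of WT, by 2.72-fold on vector and 3.04-fold on the other food.

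By contrast, orc-5 gave 5.06, 5.17 and 5.0 log2 CPM in WT and 2.01, 2.28 and 2.69 in glp-1(ts) on vector, and 4.90, 5.31 and 5.11 in WT and 1.35, 1.49 and 1.99 in glp-1(ts) on food labelled skn-1 RNAi, and it was the most reduced of the group on vector at −2.75 (SE 0.21). For orc-3 the libraries gave 4.79, 4.90 and 4.56 log2 CPM in WT and 2.31, 2.24 and 2.38 in glp-1(ts) on vector, and 4.68, 5.05 and 5.01 in WT and 1.23, 1.32 and 1.54 in glp-1(ts) on food labelled skn-1 RNAi. In orc-3 the glp-1(ts) libraries were tightly grouped on each food (SD 0.07 on vector), and those labelled skn-1 RNAi lay below all of those on vector. The licensing factor cdc-6 gave 5.06, 5.12 and 5.14 log2 CPM in WT and 2.80, 3.22 and 3.49 in glp-1(ts) on vector, and 5.21, 5.39 and 5.03 in WT and 2.90, 3.15 and 3.15 in glp-1(ts) on food labelled skn-1 RNAi, with differences of −1.94 and −2.14. The other genes were orc-1 (−2.64 on vector), cdt-1 (−2.39) and cdt-2 (−2.57), and in the latter pair the glp-1(ts) vector libraries spread by over 1 unit.

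Helicase activation had a median of −2.84 on vector and −3.62 on food labelled skn-1 RNAi. The group holds mcm-10, evl-18 (the worm CDC45 gene) and psf-1, psf-2 and psf-3, which encode subunits of the GINS complex that clamps on to the MCM ring. The values of psf-2 (WBGene00009287, chromosome I, 15053010 to 15053672, plus strand) were 1.25, 1.79 and 1.68 log2 CPM in WT and −1.96, −4.35 and −4.35 in glp-1(ts) on vector, and 1.61, 2.18 and 1.79 in WT and −3.29, −2.83 and −2.65 in glp-1(ts) on food labelled skn-1 RNAi. This gene was the lowest of all 50, and its values in replicates 2 and 3 of glp-1(ts) on vector and in replicate 1 of the labelled skn-1 RNAi group were the lowest that any gene had in those libraries. Its differences of −5.13 (SE 0.61, adjusted p 4.13e-06) and −4.78 (adjusted p 6.39e-06) therefore rest on values at the floor of the scale. At the other end, mcm-10 gave 4.67, 4.93 and 4.66 log2 CPM in WT and 2.87, 2.47 and 3.36 in glp-1(ts) on vector, and 4.88, 5.01 and 5.07 in WT and 2.62, 2.26 and 1.87 in glp-1(ts) on food labelled skn-1 RNAi. It was 3.61-fold lower on vector and 6.64-fold lower on the other food, and it shares 147 bases of exon with teg-1 on the opposite strand, the longest such overlap of the 50 genes. The differences of psf-1, psf-3 and evl-18 on vector were −2.79, −2.92 and −2.84, near those of the MCM genes.

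At the fork itself, the 8 genes of primase, clamp and clamp loader had a median of −2.2 on vector and −3.04 on food labelled skn-1 RNAi. The sliding clamp gene pcn-1 (the worm PCNA gene; WBGene00003955, chromosome IV, 4047937 to 4049448, minus strand) gave 7.78, 7.86 and 7.52 log2 CPM in WT and 4.75, 5.15 and 5.59 in glp-1(ts) on vector, and 7.78, 8.08 and 7.81 in WT and 4.62, 4.72 and 4.68 in glp-1(ts) on food labelled skn-1 RNAi. Its difference was −2.56 (SE 0.18, adjusted p 6.78e-08) on vector and −3.22 on the other food. The pcn-1 libraries of glp-1(ts) labelled skn-1 RNAi were all below those on vector, but narrowly, with 4.72 as their highest against 4.75. The clamp is opened and closed around DNA by the RFC proteins, whose genes had differences from −2.89 to −1.99 on vector. The least reduced was rfc-2, with 4.94, 4.94 and 4.65 log2 CPM in WT and 2.53, 2.64 and 3.38 in glp-1(ts) on vector, and 5.06, 4.97 and 5.20 in WT and 2.42, 2.0 and 2.09 in glp-1(ts) on food labelled skn-1 RNAi. The most reduced was rfc-4, with 5.98, 5.98 and 6.21 log2 CPM in WT and 2.42, 2.96 and 4.11 in glp-1(ts) on vector, and 6.25, 5.83 and 6.17 in WT and 3.09, 2.57 and 2.93 in glp-1(ts) on food labelled skn-1 RNAi.

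The order of the RFC genes was not the same on the other food. There rfc-1 was the least reduced, at 5.91-fold. By strain, rfc-2 was 3.97-fold lower in glp-1(ts) on vector and 7.51-fold lower on the other food, while rfc-4 was 7.44-fold and 9.31-fold lower. The primase subunit genes pri-1 and pri-2 differed by −2.58 and −2.11 on vector, and div-1, which encodes a subunit of the polymerase alpha complex that works with primase, by −2.02. All 8 genes had an adjusted p of at most 1.47e-05 on vector.

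Of the genes for strand maturation and topology, the topoisomerase gene top-1, whose product relieves the twist ahead of forks and also of transcribed genes, had the smallest difference on vector. Its values (WBGene00006595, chromosome I, 13292506 to 13297558, plus strand) were 7.87, 7.86 and 8.02 log2 CPM in WT and 5.92, 6.03 and 6.21 in glp-1(ts) on vector, and 8.03, 8.03 and 8.33 in WT and 5.76, 5.91 and 5.89 in glp-1(ts) on food labelled skn-1 RNAi. That was −1.87 (SE 0.12, adjusted p 4.33e-08) on vector. For crn-1, the flap endonuclease gene, the libraries gave 5.83, 5.83 and 5.66 log2 CPM in WT and 3.29, 3.69 and 4.41 in glp-1(ts) on vector, and 5.88, 5.79 and 6.01 in WT and 3.61, 3.58 and 3.76 in glp-1(ts) on food labelled skn-1 RNAi. In exo-1, which encodes an exonuclease of repair and flap processing, they gave 4.72, 5.05 and 4.71 log2 CPM in WT and 1.56, 1.87 and 2.79 in glp-1(ts) on vector, and 4.76, 4.84 and 4.90 in WT and 1.46, 0.96 and 1.05 in glp-1(ts) on food labelled skn-1 RNAi. The exo-1 difference was −2.75 on vector and −3.67 on the other food, the latter the largest of the group, whereas crn-1 differed by −1.98 and −2.24. The ligase gene lig-1 stood between them at −2.71 and −3.20.

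All 3 genes of nucleotide supply were lower in glp-1(ts), with differences close to each other. The genes rnr-1 and rnr-2 encode the large and the small subunit of ribonucleotide reductase, which makes deoxynucleotides, and dut-1 encodes the dUTPase that keeps uracil out of DNA. For rnr-1 (WBGene00004391, chromosome III, 9225339 to 9228798, minus strand) the values were 7.88, 8.06 and 7.75 log2 CPM in WT and 4.45, 4.63 and 5.57 in glp-1(ts) on vector, and 7.90, 8.22 and 7.85 in WT and 4.90, 4.26 and 4.79 in glp-1(ts) on food labelled skn-1 RNAi. For rnr-2 they were 8.42, 8.50 and 8.37 log2 CPM in WT and 5.39, 5.48 and 6.28 in glp-1(ts) on vector, and 8.43, 8.56 and 8.42 in WT and 5.34, 5.14 and 5.26 in glp-1(ts) on food labelled skn-1 RNAi. The genes differed from WT by −3.01 (SE 0.25) and −2.71 (SE 0.18) on vector, and dut-1 by −2.80. In glp-1(ts) on vector rnr-2 had the highest level per length of the 50 genes, 5.24 log2 CPM per kb, against a median of 2.7 over the 50 genes and 7.96 for the same gene in WT.

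The 10 CDK and cyclin genes had a median of −2.60 on vector and −3.02 on food labelled skn-1 RNAi, and they covered a range from −3.06 to −1.32. The mitotic kinase gene cdk-1 (WBGene00000405, chromosome III, 9747472 to 9748852, plus strand) gave 6.59, 6.7 and 6.76 log2 CPM in WT and 3.15, 3.64 and 4.07 in glp-1(ts) on vector, and 6.7, 6.78 and 6.59 in WT and 3.48, 2.63 and 2.86 in glp-1(ts) on food labelled skn-1 RNAi. It was 8.36-fold lower on vector (adjusted p 1.04e-07) and 12.9-fold lower on the other food. The kinase genes of S phase entry had smaller differences. For cdk-2, whose product pairs with cyclin E, the libraries gave 4.07, 4.16 and 4.20 log2 CPM in WT and 2.09, 2.14 and 2.48 in glp-1(ts) on vector, and 4.16, 4.15 and 3.49 in WT and 1.46, 2.0 and 1.99 in glp-1(ts) on food labelled skn-1 RNAi. For cdk-4 (WBGene00000406, chromosome X, 13515856 to 13518911, minus strand), whose product pairs with cyclin D, they gave 2.52, 2.69 and 2.80 log2 CPM in WT and 1.56, 1.41 and 1.08 in glp-1(ts) on vector, and 2.82, 2.80 and 2.72 in WT and 1.91, 1.44 and 0.96 in glp-1(ts) on food labelled skn-1 RNAi. The cdk-4 difference was −1.32 (SE 0.25, adjusted p 0.000271) on vector and −1.34 on the other food, so the level in glp-1(ts) was 40% of that in WT, against 12% for cdk-1. All values of cdk-4 in glp-1(ts) were below those in WT, and it was one of the few genes in which replicate 3 of glp-1(ts) on vector was not the highest of its group.

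Among the cyclin partners, the cyclin D gene cyd-1 gave 2.49, 2.72 and 2.94 log2 CPM in WT and −0.45, −0.96 and 1.01 in glp-1(ts) on vector, and 2.92, 2.76 and 2.68 in WT and −0.15, −0.07 and −0.18 in glp-1(ts) on food labelled skn-1 RNAi. It differed by −2.85 (SE 0.40) on vector and −2.92 on the other food, while its partner cdk-4 differed by −1.32 and −1.34. No test compared the genes with each other. In the vector libraries of glp-1(ts), cyd-1 was the most scattered member after psf-2 (SD 1.02), with replicate 3 well above the rest. The cyclin E gene cye-1 gave 6.32, 6.48 and 6.13 log2 CPM in WT and 3.22, 3.94 and 4.36 in glp-1(ts) on vector, and 6.36, 6.60 and 5.91 in WT and 2.79, 3.15 and 3.56 in glp-1(ts) on food labelled skn-1 RNAi, a difference of −2.47 on vector. The cyclin A gene cya-1 differed by −2.13, and it shares 107 bases of exon with dos-1 on the opposite strand.

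The B-type cyclins act in mitosis and meiosis, and their genes spanned a wide range of levels. Per length, cyb-3 had the highest WT level of all 50 genes, 7.98 log2 CPM per kb on vector, and it had 5.07 in glp-1(ts). The closely related genes cyb-2.1 and cyb-2.2 gave differences of −2.72 and −2.95. For cyb-2.1 the libraries gave 5.91, 5.87 and 5.74 log2 CPM in WT and 2.87, 2.77 and 3.72 in glp-1(ts) on vector, and 5.85, 5.88 and 5.60 in WT and 2.35, 2.30 and 2.61 in glp-1(ts) on food labelled skn-1 RNAi. For cyb-2.2 they gave 6.53, 6.52 and 6.39 log2 CPM in WT and 2.68, 3.52 and 4.40 in glp-1(ts) on vector, and 6.53, 6.72 and 6.34 in WT and 2.90, 2.69 and 3.43 in glp-1(ts) on food labelled skn-1 RNAi. Reads of such a pair can be split between the copies by the counting, so the values of each copy are uncertain. The genes cyb-1 and cyb-3 differed by −2.45 and −2.92.

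The CDK inhibitor genes cki-1 and cki-2 lie 4393 bases apart on chromosome II. Their products bind CDK and cyclin complexes of S phase entry, and in C. elegans cki-1 is known for holding somatic cells out of the cycle during development. For cki-1 (WBGene00000516, chromosome II, 7811240 to 7812105, plus strand) the libraries gave 2.09, 1.98 and 2.44 log2 CPM in WT and 0.87, 1.78 and 1.08 in glp-1(ts) on vector, and 1.96, 1.83 and 3.03 in WT and 1.1, 0.75 and 1.49 in glp-1(ts) on food labelled skn-1 RNAi. The vector group means were 2.17 ± 0.24 for WT and 1.24 ± 0.48 for glp-1(ts) (log2 CPM, SD, n = 3), a 1.91-fold difference and the smallest of the 50. The WT and glp-1(ts) libraries of cki-1 did not overlap on either food, but replicate 2 of glp-1(ts) on vector (1.78) came near the lowest WT library (1.98). For cki-2 (WBGene00000517, chromosome II, 7816499 to 7820281, plus strand) the libraries gave 4.49, 4.31 and 4.30 log2 CPM in WT and 2.31, 2.39 and 2.48 in glp-1(ts) on vector, and 4.24, 4.52 and 4.02 in WT and 2.22, 2.53 and 2.73 in glp-1(ts) on food labelled skn-1 RNAi. Its difference was −1.97 (SE 0.18, adjusted p 4.61e-07) on vector and −1.77 on the other food.

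The CDC-25 phosphatases remove the inhibitory phosphates of CDKs, and WEE-1.3 adds them. The most reduced of these genes, cdc-25.1, gave 6.83, 6.85 and 6.40 log2 CPM in WT and 3.29, 4.17 and 4.53 in glp-1(ts) on vector, and 6.81, 6.87 and 6.0 in WT and 3.52, 3.41 and 3.79 in glp-1(ts) on food labelled skn-1 RNAi. It differed by −2.69 on vector, wee-1.3, known for holding oocytes before maturation, by −2.43, and cdc-25.2 by −2.30. The phosphatases and the opposing kinase were thus reduced together, by 4.91-fold to 6.47-fold.

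Checkpoint kinases halt the cycle when replication stalls. The ATR kinase gene atl-1 (WBGene00000226, chromosome V, 9634849 to 9645595, minus strand) gave 5.51, 5.55 and 5.37 log2 CPM in WT and 2.98, 3.61 and 3.82 in glp-1(ts) on vector, and 5.53, 5.74 and 5.09 in WT and 3.09, 3.63 and 3.54 in glp-1(ts) on food labelled skn-1 RNAi. The gene of its downstream kinase, chk-1, gave 5.71, 5.69 and 5.50 log2 CPM in WT and 2.64, 2.75 and 3.53 in glp-1(ts) on vector, and 5.67, 5.73 and 5.78 in WT and 2.68, 2.75 and 3.0 in glp-1(ts) on food labelled skn-1 RNAi. On vector atl-1 differed by −2.01 (SE 0.23) and chk-1 by −2.66 (SE 0.20), and on the other food by −2.03 and −2.92. Per length atl-1 was among the low members in WT, at 2.52 log2 CPM per kb.

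Since germline markers were lower as well, each library was also read relative to its own germline list, by subtracting the mean of the 24 genes. The list had a median difference of −2.87 on vector and −3.28 on food labelled skn-1 RNAi, beside −2.60 and −3.10 for the 50 genes. Relative to the list, 15 of the 50 genes were higher in glp-1(ts) on vector, 1 was lower and 34 were not called by limma with Benjamini-Hochberg adjustment. Among all genes 84.7% were higher and 1.33% lower on this measure. On food labelled skn-1 RNAi 13 were higher (85.7% of all genes), 3 were lower (2.02%) and 34 were not called. Of the 24 germline genes themselves, 4 were called higher and 4 lower in glp-1(ts) relative to their own mean on each food. Without replicate 3 of glp-1(ts) on vector the calls were 17 higher and 2 lower on vector, and 13 higher and 8 lower on the other food. The comparison on the other food does not contain that library, and its differences were unchanged. Its counts moved only through the spread that all libraries share in the fit. Shares of all genes without that library are not given. The 3 lower calls on food labelled skn-1 RNAi became 0 without replicate 2 or 3 of either group on that food, and with the median of the list subtracted. With the oocyte and eggshell list subtracted instead, the calls on vector were 9, and with the median of the germline list the calls on the other food were 10.

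On both foods, 12 genes were higher relative to the germline list, as were 83.7% of all genes, 1 was lower (0.699%) and 31 were not called on either (10.6%). Not 1 of the MCM or nucleotide supply genes was among the 12, and mcm-2 was called lower on the labelled skn-1 RNAi food (−0.51, adjusted p 0.0301) in 15 of 21 alternatives (adjusted p 0.00194 to 0.166). The highest was cki-1, at 1.81 (SE 0.43, adjusted p 0.00064) on vector and 1.95 (adjusted p 0.000299) on the other food. It was followed by cdk-4 (1.42 and 1.77) and orc-2 (1.3 and 1.51). The next were cdk-2 (0.84 and 1.0), top-1 (0.88 and 0.84), cdc-6 (0.81 and 0.97) and cki-2 (0.77 and 1.35). The list ended with crn-1, atl-1, div-1, cya-1 and rfc-1, whose smaller difference of the 2 foods ran from 0.77 to 0.55. Those 12 include both CDK inhibitor genes and both kinase genes of S phase entry, but not the partner cyclin genes cyd-1 and cye-1, which were called on neither food. They also include 1 gene each of the origin recognition complex and the licensing factors. The rest belong to strand maturation and topology, primase and clamp loader, cyclin A and the checkpoint kinases.

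The gene that was lower on both foods was psf-2, at −2.38 (adjusted p 0.00438) and −1.67 (adjusted p 0.0356), and this direction depends on its values at the floor: on the log2(CPM + 1) scale it was 0.71 and 0.82. The cdk-1 difference was −0.32 on vector (adjusted p 0.243) and −0.58 on the other food (adjusted p 0.0369), where it was called in 11 of 21 alternatives (adjusted p 0.00368 to 0.156). Over the 50 genes the relative differences on the 2 foods had a Spearman's rho of 0.85 and a Pearson's r of 0.90. This is a description across genes that share their libraries and the germline list, and genes are not independent replicates. The foods share no library, but within a strain their libraries of the same replicate number deviated together. Intestine and muscle markers were also higher in glp-1(ts), with median differences of 1.61 and 1.50 on vector, and their part in the relative values was not tested.

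**Figure D3:**
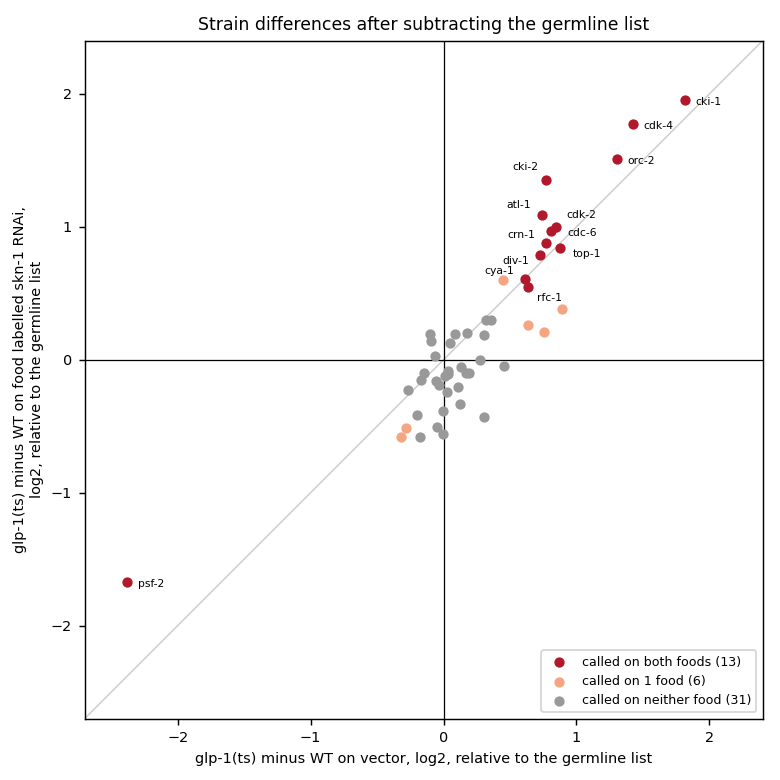
Difference between glp-1(ts) and WT for the 50 genes after the mean of 24 germline genes was subtracted in each library, on vector (horizontal) and on food labelled skn-1 RNAi (vertical), in log2 units. The 12 genes called higher on both foods lie at the upper right, led by cki-1 at 1.81 and 1.95, 31 grey points near 0 were called on neither food, and psf-2 stands alone at the lower left.

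SKN-1 is a transcription factor of stress defence and metabolism. Within each strain, the libraries labelled skn-1 RNAi were set against those on vector, where skn-1 mRNA itself differed by −1.67 in WT and by −0.02 in glp-1(ts). In WT none of the 50 genes was called by limma with Benjamini-Hochberg adjustment, and none had an unadjusted p under 0.05, where 0.175% of all genes were called in either direction. The median difference was 0.04, with a range from −0.26 (cdc-25.2) to 0.28 (psf-2). There were 35 genes above 0 and 15 below, and after centring on the 3 reference genes 29 were below 0. The groups did not overlap for 4 genes with higher values on skn-1 RNAi, psf-3, pri-2, rfc-2 and top-1, against 5.36% of all genes, and for no gene with lower values, against 5.42%. At psf-3 the values were 4.12, 4.09 and 4.14 on vector and 4.23, 4.22 and 4.35 on skn-1 RNAi, which do not overlap but lie close together.

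In glp-1(ts) the difference between the libraries labelled skn-1 RNAi and those on vector was below 0 for 46 of the 50 genes, as for 48.9% of all genes, and the median was −0.45. Of the 50, 17 had an unadjusted p under 0.05, as had 10.5% of all genes, and 1 was called, orc-3, where 0.302% of all genes were called lower. As given above, orc-3 measured 2.31, 2.24 and 2.38 on vector and 1.23, 1.32 and 1.54 in the labelled libraries. The groups did not overlap, and the difference was −0.95 (SE 0.17) with a limma Benjamini-Hochberg adjusted p of 0.0384. The same gene measured 4.79, 4.90 and 4.56 in WT on vector and 4.68, 5.05 and 5.01 in WT on skn-1 RNAi, where the groups overlapped. This single call was lost in 9 of the 12 fits that left out a library, and its adjusted p was 0.357 when only the 2 groups entered the fit.

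The size of these differences in glp-1(ts) depended on replicate 3 of the vector group. That library lay above the mean of replicates 1 and 2 by a median of 0.86 over the 50 genes and 1.02 over the germline list, against 0.01 over all genes. Without it, 35 of the 50 genes were below 0 with a median of −0.14, 6 had an unadjusted p under 0.05 and none was called. With all libraries, 48.9% of all genes were below 0 and 10.5% had such a p. The shares of all genes without that library are not given. Taken by replicate number, the median of the 50 genes was −0.05 for number 1, −0.38 for number 2 and −0.96 for number 3, with 29, 41 and 46 genes below 0. The germline list gave 0.03, −0.29 and −0.94. In glp-1(ts) 24 of the 50 genes were below 0 in all 3 pairs, as were 18% of all genes, and none was above 0 in all 3 (19.6%). In WT the corresponding medians of the 50 genes were 0.04, 0.12 and −0.02, with 1 gene below 0 in all 3 pairs (14.1% of all genes) and 13 above (16.1%). The skn-1 mRNA differed by −0.02 between the same glp-1(ts) groups.

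**Figure D4:**
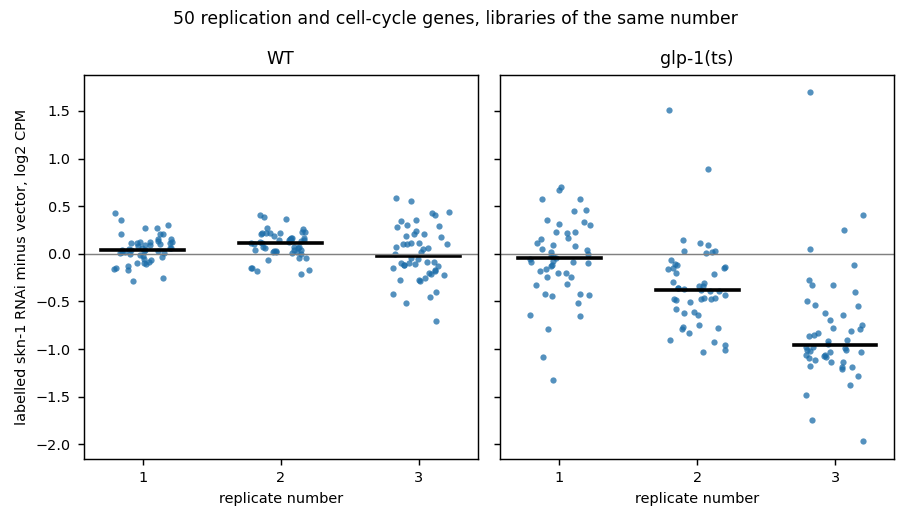
Difference of each of the 50 genes between the library labelled skn-1 RNAi and the vector library of the same replicate number, in log2 CPM, for WT (left) and glp-1(ts) (right), with a bar at the median. In WT the medians lie between −0.02 and 0.12, and in glp-1(ts) they are −0.05, −0.38 and −0.96.

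The groups did not overlap for 12 genes with lower values in the labelled libraries, against 6.34% of all genes: mcm-3, mcm-4, orc-3, orc-5, pcn-1, rfc-2, rfc-3, exo-1, top-1, rnr-2, cdk-2 and cyb-2.1. Without replicate 3 of the vector group the count was also 12, against 11.3% of all genes. At several of these genes, among them pcn-1, top-1, rnr-2 and mcm-3, the gap between the groups was narrow. Lowest after orc-3 were exo-1 (−0.92, adjusted p 0.221) and psf-1 (−0.78, adjusted p 0.45), which were not called. The difference between the strains of the skn-1 RNAi effects was below 0 for 48 of the 50 genes and 50% of all genes, with a median of −0.46 over the 50, and no gene in the table was called (0%). Of the 50, 10 had an unadjusted p under 0.05, against 5.92% of all genes. Without replicate 3 of glp-1(ts) on vector, 38 were below 0, the median was −0.19 and 5 had such a p. The shares of all genes in this reduced fit are not given. The comparisons with vector in glp-1(ts), between the strains on vector and of the effects all use the same 3 glp-1(ts) vector libraries.

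**Figure D5:**
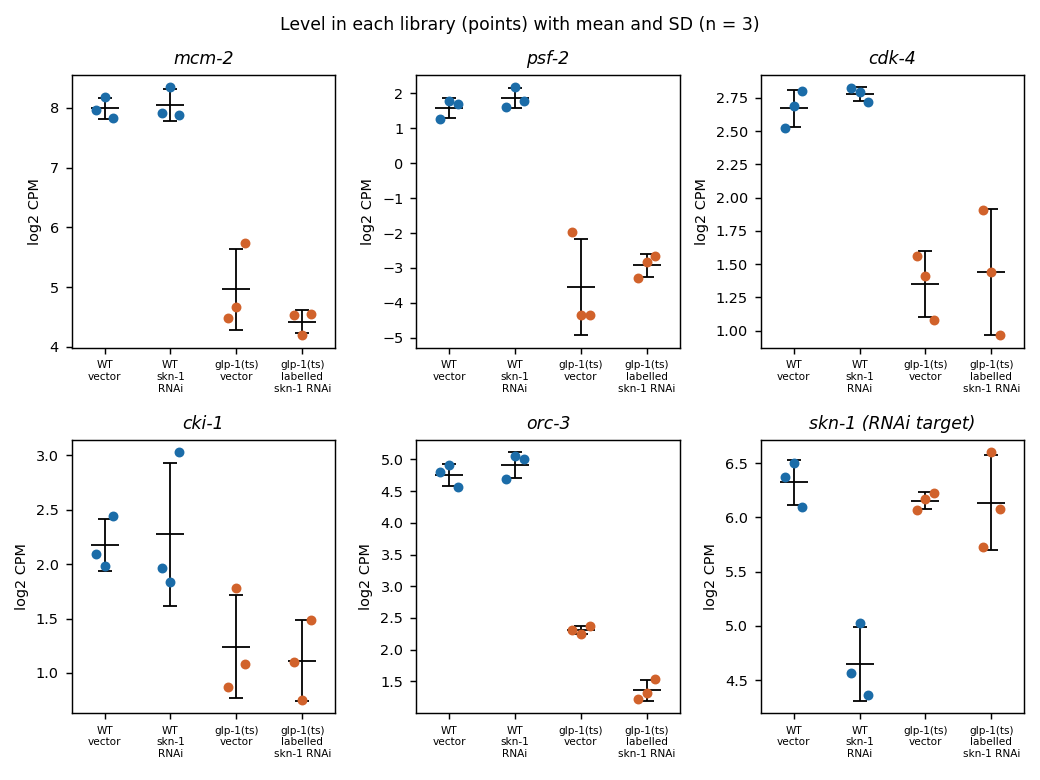
Level in log2 CPM in each library (points), with mean and SD (n = 3), for mcm-2, psf-2, cdk-4, cki-1 and orc-3 and for the RNAi target skn-1, in the 4 groups. The 5 member genes are lower in both glp-1(ts) groups than in both WT groups, whereas the 3 lowest skn-1 values are those of WT on skn-1 RNAi.

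Scatter between replicates differed by group. The median SD of the 50 genes was 0.12 log2 units in WT on vector, 0.20 in WT on skn-1 RNAi, 0.52 in glp-1(ts) on vector and 0.26 in glp-1(ts) labelled skn-1 RNAi, against 0.19, 0.27, 0.29 and 0.26 over all genes. Replicate 2 was the highest for 32 of the 50 genes in WT on vector and for 34 in WT on skn-1 RNAi. The shares of all genes were not counted for these groups, so the counts cannot be read as particular to the 50 genes.

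Other genes of the same processes, listed by name with earlier results of these data known, were counted as well. Of 27 other replication genes, 25 were lower in glp-1(ts) on vector, none was higher and the median was −2.11. Examples, chosen after their values were seen, include orc-4 (−2.97), a further origin recognition subunit, and rpa-1 (−2.11) and rpa-2 (−1.81), which encode the proteins that coat single-stranded DNA. The ribonuclease H gene rnh-2 was the lowest at −3.36, and rnh-1.0 was not called (0.36, adjusted p 0.22). Of 25 other cell-cycle genes 24 were lower, with a median of −1.98, from apc-10 (−3.68), a subunit gene of the anaphase-promoting complex, to skr-1 (0.16, not called), which encodes a ubiquitin ligase subunit. Between them lay the mitotic kinase gene plk-1 (−3.22), the CDK-binding gene cks-1 (−2.72) and the retinoblastoma gene lin-35 (−2.19). All 9 other checkpoint genes were lower, with a median of −2.95, among them the clamp genes hus-1 (−2.94) and hpr-9 (−3.26) and the p53-family gene cep-1 (−2.43). On food labelled skn-1 RNAi the same numbers of genes, 25, 24 and 9, were called lower.

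By the Ensembl annotation of WBcel235, 14 lie on chromosome III and 13 on chromosome I, 28% and 26% of the genes, where 16.3% and 16.4% of the genes in the table lie. Only cdk-4 lies on the X chromosome, which holds 14.5% of the table's genes and none of the 24 germline list genes. Of the 50 genes, 17 share some exon bases with another protein-coding gene, and no strand setting of the counting was stated.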

How the data were processed

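Poly(A) RNA of whole day 1 adults was sequenced as single 50-base reads. Per the labels and methods, the authors aligned reads with STAR to WBcel235, counted them per gene with featureCounts, kept genes at 1 CPM or more in at least 2 samples, and deposited log2 CPM values made by voom with quantile normalisation. Tool versions were not given in the sources used here, and neither was the strand setting. No read totals were used, so depth is unknown. Columns of group averages and of the authors' own comparisons (fold changes, test scores, p-values and FDR) were not used.

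All 12 libraries entered 1 limma 3.58.1 fit (R 4.3.3) of 4 group means with a variance trend. Two-sided p-values were adjusted by Benjamini-Hochberg over 12595 genes and called under 0.05. P-values rest on 1 spread between biological replicates per gene, pooled over the 4 groups of 3 and drawn towards that of other genes. They do not rest on the spread of the compared groups alone. Levels per kb used the exon length of the Ensembl annotation of WBcel235.

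Members and lists were chosen with earlier results of these data known. Genes given in every library were the highest and lowest of each role by strain difference on vector, those called in a skn-1 RNAi comparison, up to 10 called relative to the germline list on both foods, the MCM genes, pcn-1 and the main CDK, cyclin and inhibitor genes. Replicate numbers paired vector with skn-1 RNAi libraries within a strain: same-number correlations of deviations over all genes were 0.106, 0.314 and 0.247 in WT and 0.149, 0.337 and 0.233 in glp-1(ts). Between strains the same-number values were weaker at each number, from 0.035 to 0.163. Different-number values between strains ran from −0.156 to 0.062, so a weak pairing there is not excluded. Alternatives were other scalings, filters, pseudocounts, weights, a replicate block and leaving out each library.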

Additional observations from a re-analysis of the deposited data

How the results depend on the processing

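The strain comparisons kept 50 calls on food labelled skn-1 RNAi under every alternative that tested all 50 genes, and 49 to 50 on vector when a library was left out. With the replicate number as a block, which follows the pairing within a strain, the calls were 50, 50, 0, 1 and 0 for the 2 strain comparisons, skn-1 RNAi in WT, the same label in glp-1(ts) and the difference of effects, and 16 on each food relative to the germline list, so no call count changed. The 16 calls relative to the list became 9 on vector with the oocyte and eggshell list and 10 on the other food with the list's median, and leaving out a library gave 13 to 19 and 11 to 21. The single call for the skn-1 RNAi label within glp-1(ts), orc-3, became 0 with centring on the reference genes, with no variance trend, with only the 2 groups and with vooma weights, and 0 to 1 when a library was left out, with an adjusted p from 0.0267 to 0.357 over all alternatives. For skn-1 RNAi in WT and for the difference of effects the calls were 0 in each fit that left out a library. On the log2(CPM + 1) scale psf-2 turned from lower to higher relative to the germline list, at 0.71 (adjusted p 0.025) on vector and 0.82 (adjusted p 0.011) on the other food. That scale compresses values near 0 CPM, where psf-2 lies in glp-1(ts). Of 1939 values of single genes under alternatives, 1890 kept direction and call, 44 lost the call, 3 gained it and 2 reversed.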

Other observations

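A list of 16 other genes of CDKs, cyclins and proteins that bind or are named after them held genes of either direction. Of the 16, 12 were lower in glp-1(ts) on vector by limma with Benjamini-Hochberg adjustment, 2 were higher and 2 were not called, and the median was −0.98. The lower genes ran from cyh-1 (−1.96, adjusted p 5.44e-06), the cyclin H gene, and cdk-7 (−1.69), the kinase gene of its complex, to cdk-12 (−0.76), whose product phosphorylates RNA polymerase. The transcription kinase gene cdk-9 differed by 0.08 (adjusted p 0.681) and the cyclin T gene cit-1.2 by 0.12 (adjusted p 0.529), neither of them called. Higher in glp-1(ts) were cdka-1 (1.71, adjusted p 5.16e-05), which encodes an activator of the neuronal kinase CDK-5, and cnnm-1 (1.70, adjusted p 5.12e-07), which encodes a magnesium transport protein of a family named for its likeness to cyclins. On food labelled skn-1 RNAi the differences of cdka-1 and cnnm-1 were 1.85 and 1.69. Neuron markers were higher as well, with 5 of 7 called and a median of 1.68 on vector, and their part in the cdka-1 difference was not tested.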
